A study of Homo sapiens with 3 samples.

Results

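C-to-U editing was examined in the transcripts of the spliceosome and its small nuclear ribonucleoprotein (snRNP) core. The genes were chosen by symbol, by a rule that uses no measured value: the SF3A, SF3B, SNRNP, SNRP, PRPF, U2AF and LSM families, together with SF1, U2SURP, EFTUD2, CDC5L, AQR, SART1, SART3, SRRM1, SRRM2, XAB2, CRNKL1 and PLRG1. Of 70 such genes searched by name, 55 held at least 1 edit cluster, out of 9904 gene names in the whole series. They held 357 of 40843 clusters. The name rule also dropped pseudogene symbols, which end in P and a number. Read literally, that would remove the SNRNP genes as well and leave 50 genes with 325 clusters, so the literal reading was kept as an alternative.

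The spliceosome removes introns in ordered steps. The U1 snRNP pairs with the 5′ splice site, SF1 and U2AF mark the branch site and the 3′ splice site, and the U2 snRNP with its SF3a and SF3b complexes then takes over the branch site. The U4/U6.U5 tri-snRNP and the PRPF19 complex join to form the active enzyme. Sm proteins form a ring on most spliceosomal snRNAs, and LSm proteins form a like ring on U6. RBFOX2 is a splicing regulator that binds GCAUG elements. The values here report where its fusion left edits on the messenger RNAs of these proteins, not on the snRNAs and not how the proteins behaved.

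All 3 samples were one group, called RBFOX2-APOBEC1: cells of the line HEK293T (lenti-X HEK293XT, transformed human embryonic kidney), labelled wild type in genotype, that expressed the RBFOX2-APOBEC fusion after doxycycline induction for 72 h. APOBEC1 is a cytidine deaminase, so RNA near the fused RNA-binding protein gains C-to-U edits, a method known as STAMP. The labels name both a transient transfection and stable lines, and no sample with unfused APOBEC1 or without the fusion was analysed here. Edits made by RBFOX2 targeting and edits that the deaminase would make without it therefore cannot be told apart, and no comparison between conditions was possible.

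A cluster is a merged run of windows in which FLARE found more edits than its background model allowed, called in each replicate on its own. Replicates 1, 2 and 3 held 14295, 15181 and 11367 clusters in all genes. The spliceosome genes held 127, 129 and 101 of them, a mean of 119 ± 15.6 (SD, n = 3). As a share of all clusters this was 0.888%, 0.850% and 0.889%, or 0.876% ± 0.0224 (SD, n = 3), so the share hardly moved while the number of clusters fell with the total in replicate 3. The clusters counted 17741, 16218 and 13360 reads, of which 505, 475 and 380 carried an edit, giving pooled shares of edited reads of 2.85%, 2.93% and 2.84%. Besides the share of its reads that were edited, each cluster had an edit fraction, the edited bases over all covered C bases. Reads had no molecular identifiers, so the Wilson 95% intervals given here cover counting error only.

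The edits were spread unevenly over the genes. SNRPB led with 167 edited reads, followed by U2AF2 with 112, SF3B4 with 104, SF3B1 with 96 and SF3B3 with 74. These 5 genes held 553 of 1360 edited reads, or 40.7%. Such sums grow with the abundance and length of a transcript and are not levels of editing. By number of clusters the order was another, with SF3B1 first at 23, SF3B3 at 16, SF3B4 at 15, and SF1, PRPF38B and CRNKL1 at 14 each, while SNRPB had 8 and U2AF2 had 6. The 12 genes with at least 10 clusters held 163 clusters.

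Clusters were seen in 44, 51 and 42 of the genes in replicates 1, 2 and 3. In 35 genes (63.6%) all 3 replicates had a cluster somewhere in the gene, in 12 genes 2 replicates did, and in 8 genes 1 replicate did. Over all gene names, 3754 (37.9%) had a cluster in all 3 replicates. These shares were not compared at like depth or at like numbers of clusters per gene. The median depth was 51.4 reads for spliceosome clusters and 23.6 for all clusters (means of 3 replicates). The 8 genes seen in 1 replicate were U2AF1L4, PRPF19 and LSM6 in replicate 1 and PRPF31, PRPF6, LSM11, XAB2 and AQR in replicate 2. AQR, an RNA helicase of the intron-binding complex, had 5 clusters, all in replicate 2, at a median depth of 10.7 reads. The clusters of LSM11, a subunit of the U7 snRNP that processes histone messages, were likewise all 3 in replicate 2 at a median depth of 8.65 reads. The remaining 15 genes had no cluster in the files used here: SNRPD2, SNRPN, SNRPA, PRPF40B, SF3A2, SF3B5, SF3B6, U2AF1L5, SART1, LSM2, LSM7, LSM8, LSM10, SNRNP25 and SNRNP35. Since windows that failed the threshold were not analysed, a gene without a cluster is not shown to be unedited. It was also not checked that the annotation used holds each of these names.

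**Figure D1:**
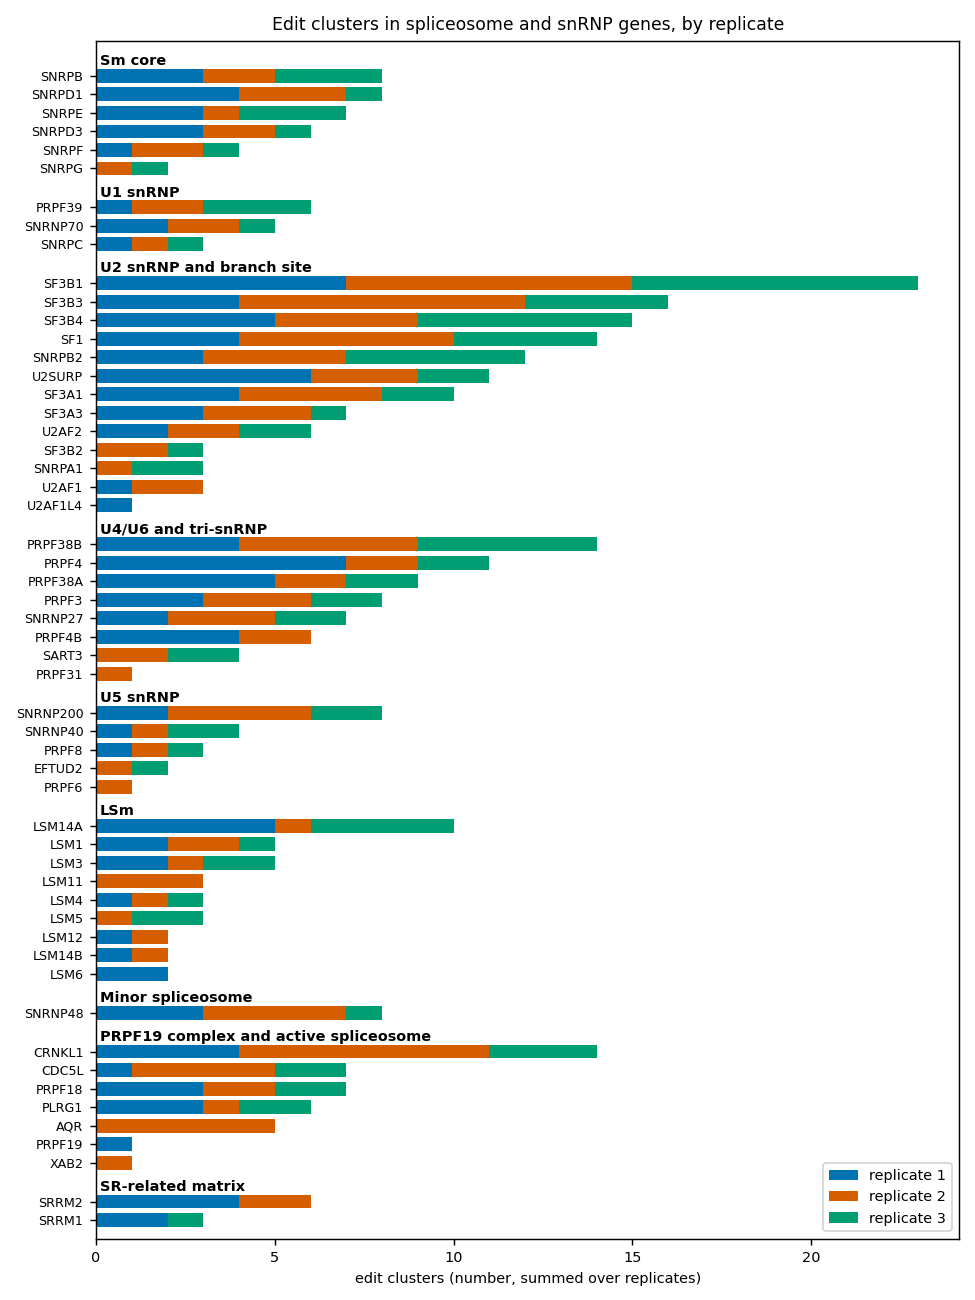
Number of edit clusters in the spliceosome and snRNP genes with a cluster, apart from 1 gene that is not reported (x axis), stacked by replicate and grouped by the role of the protein. SF3B1 has the longest bar at 23 clusters, all 5 clusters of AQR come from replicate 2, and the minor spliceosome is represented by SNRNP48 alone.

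The U2 snRNP and branch-site genes held the most clusters, 124 over 13 of 17 genes, with 575 of the 1360 edited reads. The median depth of these clusters was 80.9, 82.5 and 64.5 reads in replicates 1, 2 and 3 (76.0 ± 9.98, SD, n = 3), and their median edit fraction was 0.977% ± 0.0813 (SD, n = 3). Clusters are called found in all replicates here if each other replicate had a cluster on that strand sharing 1 base or more with them. This held for 27 of the 124 clusters (21.8%), and all 27 lay in SF3B1, SF3B3, SF3B4, SF1 and U2AF2.

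All clusters of U2AF2, the large U2AF subunit that binds the polypyrimidine tract, were found in every replicate. Its 6 clusters, 2 in each replicate, lay within a single stretch of 195 bases at chr19:56185781-56185975 (hg19, plus strand, annotated as an exon). In the first locus, chr19:56185781-56185870, 15 of 241 reads were edited in replicate 1 (6.22%, interval 3.81 to 10.0%), 28 of 330 in replicate 2 (8.48%, 5.94 to 11.99%) and 25 of 282 in replicate 3 (8.87%, 6.08 to 12.8%). The mean of 7.86% ± 1.43 (SD, n = 3) was the highest share of edited reads of the loci found in all 3 replicates. By edit fraction this locus did not lead, at 0.906% ± 0.104 against 3.39% ± 0.966 at the shallow CRNKL1 locus (SD, n = 3). The edit fraction of the second U2AF2 locus was 0.444% ± 0.118 (SD, n = 3). In the second locus, chr19:56185886-56185975, 10 of 503, 20 of 390 and 14 of 334 reads were edited, or 1.99%, 5.13% and 4.19%. By share of edited reads replicate 1 was the low sample at both loci. At the first locus its cluster covered 45 bases against 90 in each other replicate. By edit fraction replicate 3 was lowest there (0.907%, 1.01% and 0.801%).

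SF3B4, an SF3b subunit that contacts RNA near the branch site, had 15 clusters and 2 loci found in all replicates. In the locus chr1:149895255-149895479, in exon 0 of the files' numbering, 14 of 176, 23 of 280 and 8 of 240 reads were edited (7.95%, 8.21% and 3.33%). Replicate 3 was lower than the other replicates there, with an interval of 1.70 to 6.44% that overlaps theirs. In the second locus, chr1:149898629-149898778, 2 of 115, 7 of 212 and 4 of 117 reads were edited (1.74%, 3.30% and 3.42%).

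SF3B1, the largest SF3b subunit and a frequent target of mutation in blood cancers, had 7, 8 and 8 clusters over a span of 34039 bases, and 3 loci found in all replicates. The locus chr2:198257757-198257936 had 12 of 445, 16 of 494 and 6 of 252 edited reads (2.70%, 3.24% and 2.38%; mean 2.77% ± 0.434, SD, n = 3). The other two loci were chr2:198256804-198256878, at 2.64%, 6.94% and 2.13%, and chr2:198256924-198257058, at 3.26%, 2.22% and 1.64%. By share of edited reads replicate 3 was lowest at both, and it rested there on 2 edited reads and 1 edited read. By edit fraction replicate 1 was lowest at both. The values were 0.449%, 1.54% and 0.909% at chr2:198256804-198256878, and 0.788%, 1.64% and 1.49% at chr2:198256924-198257058. Cluster lengths were unequal, at 45, 75 and 30 bases in the former locus and 135, 45 and 30 bases in the latter. In each of these loci only 1 of the 3 clusters overlapped those of both other replicates, which shared no base with each other.

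SF3B3, a scaffold subunit of SF3b, had 4, 8 and 4 clusters. The locus chr16:70605877-70605936 had 12 of 274, 5 of 223 and 6 of 171 edited reads (4.38%, 2.24% and 3.51%). The locus chr16:70605997-70606101 had 6 of 174, 6 of 147 and 10 of 106 (3.45%, 4.08% and 9.43%), with replicate 3 highest. SF1, which binds the branch point before the U2 snRNP does, had 18 of 293, 11 of 222 and 3 of 176 edited reads at chr11:64532139-64532228 (6.14%, 4.95% and 1.70%). Replicate 3 was lowest at SF1, where its cluster covered 30 bases against 90 in replicate 1.

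**Figure D2:**
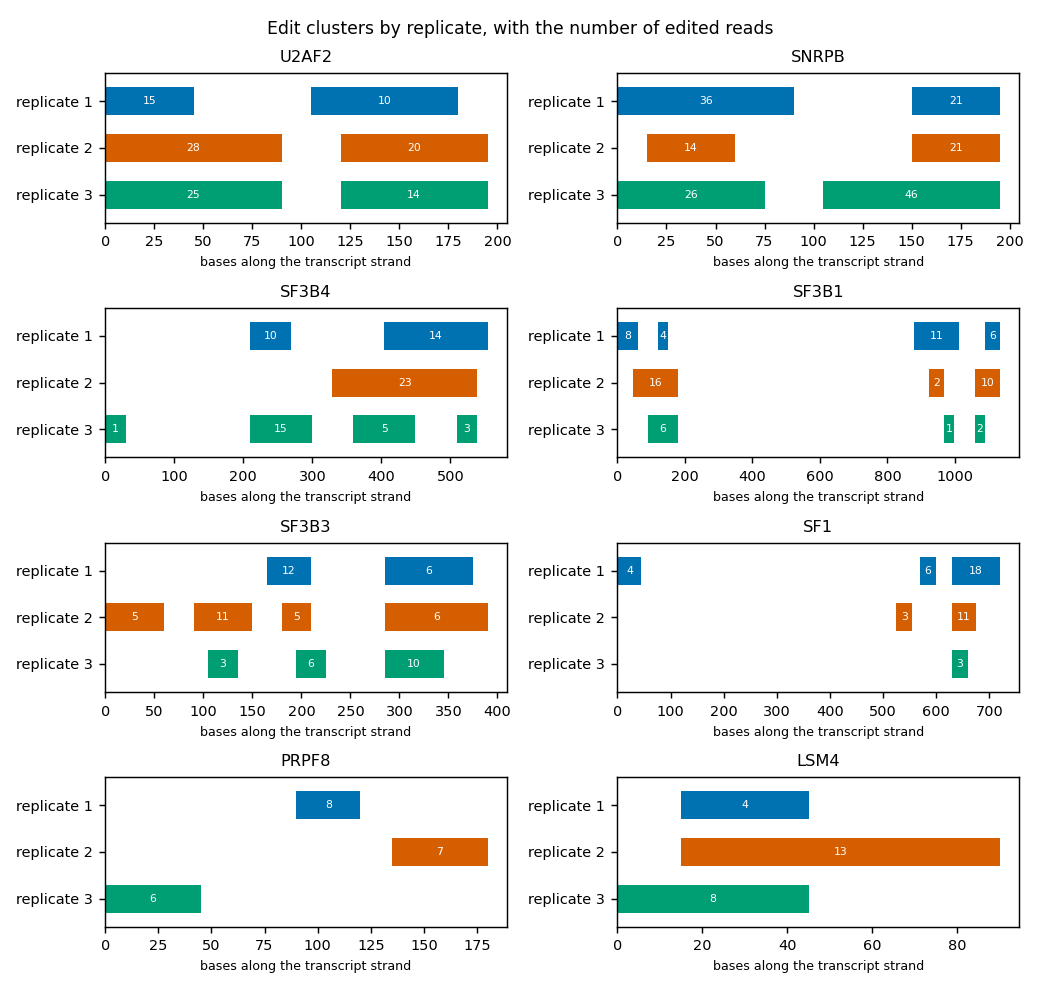
Clusters of replicates 1, 2 and 3 (rows) along 8 genes, in genomic bases, introns included, from the first clustered base of the stretch in the direction of the transcript; the number in each bar is the count of edited reads. For SNRPB, SF3B4, SF3B1, SF3B3 and SF1 one stretch of the gene is drawn. In U2AF2 the bars of all replicates stack in 2 places, and in PRPF8 the 3 bars do not overlap.

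Overlap in all replicates was not seen in the other branch-site genes. SF3A1, an SF3a subunit, had 10 clusters, SNRPB2, a U2 snRNP protein, 12 and U2SURP, a U2-associated protein, 11, and none of these clusters was found in all 3 replicates. SF3A3 had 7 clusters, none found in all. SF3B2 had 3 clusters within 195 bases, all in replicates 2 and 3. SNRPA1, a U2 snRNP protein, had 3 clusters, also in replicates 2 and 3. Together the SF3b subunits with SF3B symbols held 57 clusters with 286 edited reads, and 18 of the 57 were found in all replicates. PHF5A of the same complex is counted separately, further on. The SF3a subunits held 17 clusters with 40 edited reads, and 0 of the 17 were. Of the clusters of other genes, 11.2% ± 1.71 were found in all replicates (SD, n = 3). That share was 3.66% at a depth of 10 to 20 reads and 26.7% at 50 reads or more. The median depth was 16.9 reads for the 10 clusters of SF3A1 and 60.2 for the 7 of SF3A3. The SF3b and SF3a shares were not compared at like depth.

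The clusters of the Sm core genes had a median depth of 382, 71.5 and 429 reads in replicates 1, 2 and 3, the highest of the roles in replicates 1 and 3. In replicate 2 the U1, U2, U5 and SR-related genes had higher medians, and the SD over replicates was 194 reads around a mean of 294. For 2 of 8 clusters of SNRPB and 4 of 7 of SNRPE, described further on, the stated depth is far above the coverage of the C bases. They held 35 clusters with 284 edited reads, and 10 clusters were found in all replicates. SNRPB, which encodes the SmB and SmB′ proteins, had 2 such loci. At chr20:2442326-2442415 it had 21 of 920, 21 of 827 and 46 of 1182 edited reads (2.28%, 2.54% and 3.89%), with replicate 3 highest by share. The clusters there covered 45, 45 and 90 bases, and by edit fraction replicate 3 was lowest (0.324%, 0.337% and 0.257%). At chr20:2442431-2442520 SNRPB had 36 of 1676, 14 of 1208 and 26 of 1225 (2.15%, 1.16% and 2.12%), with replicate 2 lowest by share. The clusters at this locus covered 90, 45 and 75 bases, and by edit fraction replicate 1 was lowest (0.315%, 0.515% and 0.570%). The 2 SNRPB loci were the deepest found in all replicates, at 523 to 924 reads. Their edit fractions, 0.306% ± 0.0432 and 0.466% ± 0.134 (SD, n = 3), were among the lowest.

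SNRPD3 had 13 of 623, 13 of 417 and 4 of 302 edited reads at chr22:24967945-24968079 (2.09%, 3.12% and 1.32%). SNRPE had 27 of 752, 3 of 536 and 2 of 80 at chr1:203839081-203839200 (3.59%, 0.560% and 2.50%). At SNRPE the called intervals differed, covering 120 bases in replicate 1 and 30 bases in each other replicate, and the depth in replicate 3 was 34.8 reads against 383 and 389. The clusters of replicates 2 and 3 there shared no base with each other. SNRPD1 had 8 clusters within 915 bases, 4, 3 and 1 by replicate, and SNRPF had 4. SNRPG had 2 clusters, in replicates 2 and 3.

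The LSm genes held 35 clusters in 9 of 13 genes, at a median depth of 50.9 ± 4.26 reads and a median edit fraction of 1.40% ± 0.350 (SD, n = 3). All 6 clusters found in every replicate lay in LSM3 and LSM4, both subunits of the U6 ring and of the cytoplasmic decay ring. The 3 clusters of LSM4 fell in 90 bases at chr19:18418016-18418105, with 4 of 496, 13 of 629 and 8 of 451 edited reads (0.806%, 2.07% and 1.77%). LSM3 had 9 of 457, 3 of 354 and 5 of 354 edited reads at chr3:14225438-14225532 (1.97%, 0.847% and 1.41%), the lowest mean share of the loci found in all replicates at 1.41% ± 0.561 (SD, n = 3). LSM14A, a component of cytoplasmic RNA granules rather than of the spliceosome, had the most clusters of the family, 10, of which 0 were found in all replicates.

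The U5 snRNP genes held 18 clusters at a median depth of 117, 89.2 and 137 reads and the lowest median edit fraction of the roles, 0.711% ± 0.0497 (SD, n = 3). No cluster of theirs overlapped in all 3 replicates, which was not tested against other genes at like depth. PRPF8, the large protein at the catalytic centre, had 1 cluster per replicate, with 8 of 274, 7 of 152 and 6 of 246 edited reads (2.92%, 4.61% and 2.44%), within 180 bases at chr17:1553954-1554133 but without overlap. The 4 clusters of SNRNP40 fell within 270 bases at chr1:31732553-31732822. SNRNP200, the helicase that unwinds U4/U6, had 11 of 219 edited reads in replicate 2 and 10 of 162 in replicate 3 in overlapping clusters near chr2:96940555-96940614, and no cluster there in replicate 1. With a distance of at most 200 bases in place of an overlap, a rule added after the data were seen, 7 of the 18 U5 clusters (38.9%) had a partner in each other replicate, as did 26.9% of all clusters of the series.

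The U4/U6 and tri-snRNP genes held 60 clusters at a median depth of 28.1 ± 4.09 reads and a median edit fraction of 1.55% ± 0.178 (SD, n = 3). PRPF3, a U4/U6 protein, had 4 of 94, 3 of 83 and 5 of 69 edited reads at chr1:150325535-150325579 (4.26%, 3.61% and 7.25%). PRPF38B had 2 of 54, 2 of 35 and 1 of 24 edited reads at chr1:109243105-109243164 (3.70%, 5.71% and 4.17%). These counts are so small that the intervals at PRPF38B ran from 0.739% to 20.2%. PRPF4, another U4/U6 protein, had 7 of its 11 clusters in replicate 1, and none was found in all replicates. SNRNP27 had 7 clusters and SART3, a U6 recycling factor, had 4.

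The U1 snRNP genes held 27 clusters, 9, 6 and 12 by replicate. None was found in all replicates, again without a test against other genes at like depth. PRPF39 had 6 clusters and SNRPC, the U1 C protein, had 3. SNRNP70, the U1 70K protein, had 5. The PRPF19 complex and active spliceosome genes held 41 clusters at a median depth of 18.4 ± 1.36 reads and a median edit fraction of 1.94% ± 0.594 (SD, n = 3). Of these, 1 was found in all replicates. It was a CRNKL1 cluster of replicate 2, and the clusters of replicates 1 and 3 that it overlapped shared no base with each other. In the joined locus, chr20:20017983-20018177, 2 of 21, 4 of 55 and 2 of 35 reads were edited (9.52%, 7.27% and 5.71%), with an interval in replicate 1 of 2.65 to 28.9%. CDC5L and PRPF18, a second-step factor, had 7 clusters each. The minor spliceosome was represented by SNRNP48 alone, with 8 clusters at 14.2, 23.1 and 14.2 reads of median depth, and the SR-related matrix proteins SRRM1 and SRRM2 by 9.

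Across these roles, shallower groups had higher median edit fractions. The order of median depth from the Sm core and U5 down to the PRPF19 complex and the minor spliceosome is roughly the reverse of the order of median edit fraction, although Sm core and U2 genes differed from each other by less than their spread between replicates. Depth and edit fraction share their reads, since at a low depth a single edited base is already a large fraction.

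**Figure D3:**
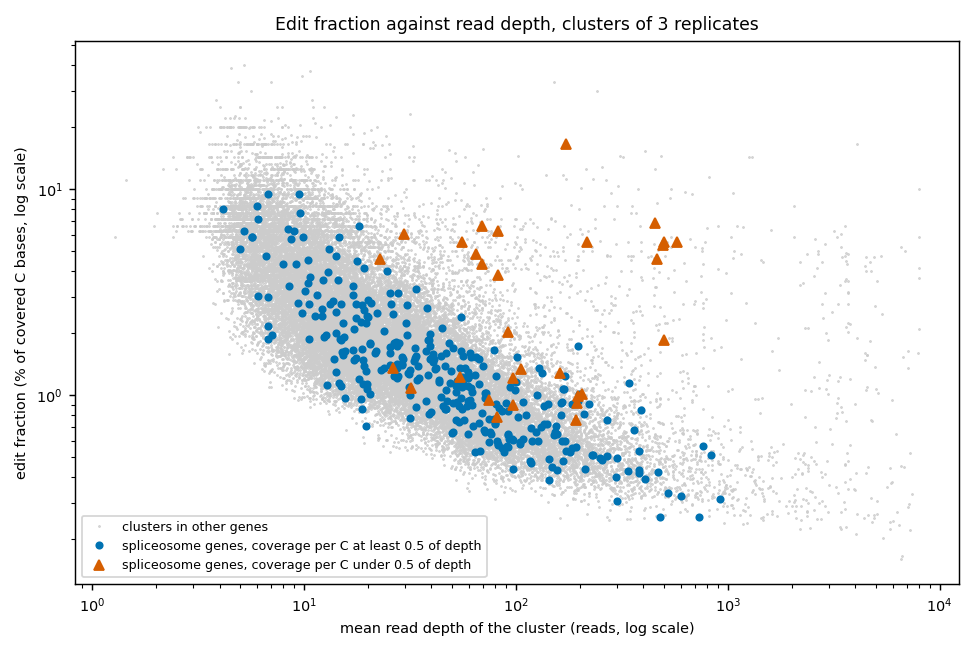
Edit fraction (y axis, log scale) against mean read depth (x axis, log scale) of every cluster, with clusters of other genes in grey and the 357 spliceosome clusters in colour. The coloured points follow the grey band from upper left to lower right, and 30 triangles mark clusters whose coverage per C base was under 0.5 of their depth, several of them above the band.

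The same relation bears on the comparison with the rest of the transcriptome. The median depth of the spliceosome clusters was 53.0, 54.6 and 46.6 reads, against 25, 24.5 and 21.0 for the clusters of other genes, a difference of 27.9 ± 2.21 reads that was positive in 3 of 3 replicates (exact sign-flip permutation test, two-sided, p = 0.25, the smallest that 3 replicates allow). In bulk RNA, a deeper cluster from more RNA per cell and one from more cells cannot be told apart. Their median edit fraction was 1.16%, 1.17% and 1.36%, against 1.64%, 1.65% and 1.80% in other genes, a difference of -0.469 ± 0.0230 percentage points that was negative in 3 of 3 replicates (exact sign-flip permutation p = 0.25). Set against other clusters weighted to the same depth classes, the difference was +0.0166 ± 0.180 points, and among clusters of at least 50 reads the spliceosome genes were higher, at 0.829% ± 0.0140 against 0.783% ± 0.00928 (SD, n = 3). The sign of the difference thus did not hold at like depth.

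The share of spliceosome clusters found in all 3 replicates was 13.4%, 13.2% and 15.8%, or 14.1% ± 1.48 (SD, n = 3), against 10.5%, 9.83% and 13.1% in other genes. The difference of 2.98 ± 0.318 points was positive in 3 of 3 replicates (exact sign-flip permutation p = 0.25). Weighted to like depth it was -2.62 ± 0.806 points. With a distance of at most 200 bases in place of an overlap it was -0.00389, 1.61 and 0.936 points by replicate, and so no longer positive in all of them. Weighted to classes of edited reads, also added after the data were seen, it was 0.115 ± 0.189 points. In the deepest class, of at least 50 reads, 25.3% ± 4.12 of spliceosome clusters and 26.7% ± 3.54 of others were found in all replicates, and in the class under 10 reads, 0 of 25 spliceosome clusters were, against 1.47% of others.

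**Figure D4:**
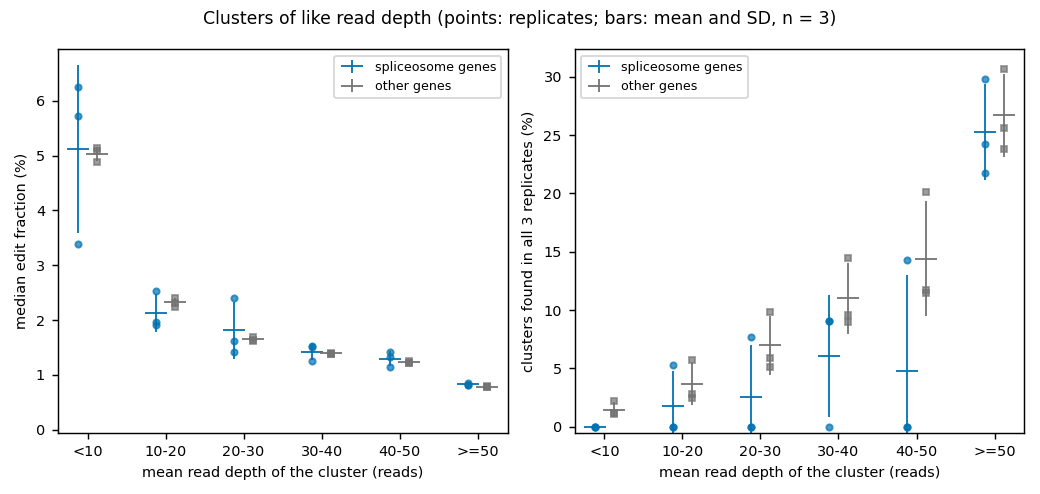
Median edit fraction (left) and share of clusters found in all 3 replicates (right) by class of mean read depth, for spliceosome genes (circles) and other genes (squares), 1 point per replicate with mean and SD bars that are cut at 0. Both groups fall in edit fraction and rise in sharing with depth, and in the deepest class they stand at 0.829% and 0.783% for edit fraction.

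Clusters with more edited reads were found in all replicates more often. Of 85 spliceosome clusters with a single edited read, 1 was found in all replicates. Of 25 with at least 11 edited reads, 22 were. In other genes 1.90% to 2.79% of clusters with 1 edited read and 75.9% to 83.4% of those with at least 11 were found in all replicates, by replicate. Clusters with 1 edited read made up 23.9% ± 4.41 of spliceosome clusters and 30.7% ± 2.53 of others (SD, n = 3). In 63 spliceosome clusters the edits averaged at least 3 bases per edited read, or 17.7% ± 0.947 of spliceosome clusters against 21.5% ± 1.17 of others (SD, n = 3). The highest value was in PRPF38A, a tri-snRNP protein, with 10 edited bases on 1 read in replicate 3.

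When overlapping clusters were joined into loci, the spliceosome genes had 282, of which 228 were seen in 1 replicate, 35 in 2 and 19 in 3. The 19 made up 6.74% of the spliceosome loci, and 1586 of 33244 loci of all genes (4.77%) were seen in 3. They lay in 13 genes. Their mean share of edited reads had a median of 3.38%, against 4.64% for 1567 such loci in other genes. The highest replicate exceeded the lowest by a median factor of 2.00, against 1.82. None of these values was compared at like depth, and spliceosome clusters were deeper than others (median 51.4 against 23.5 reads, means of 3 replicates).

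**Figure D5:**
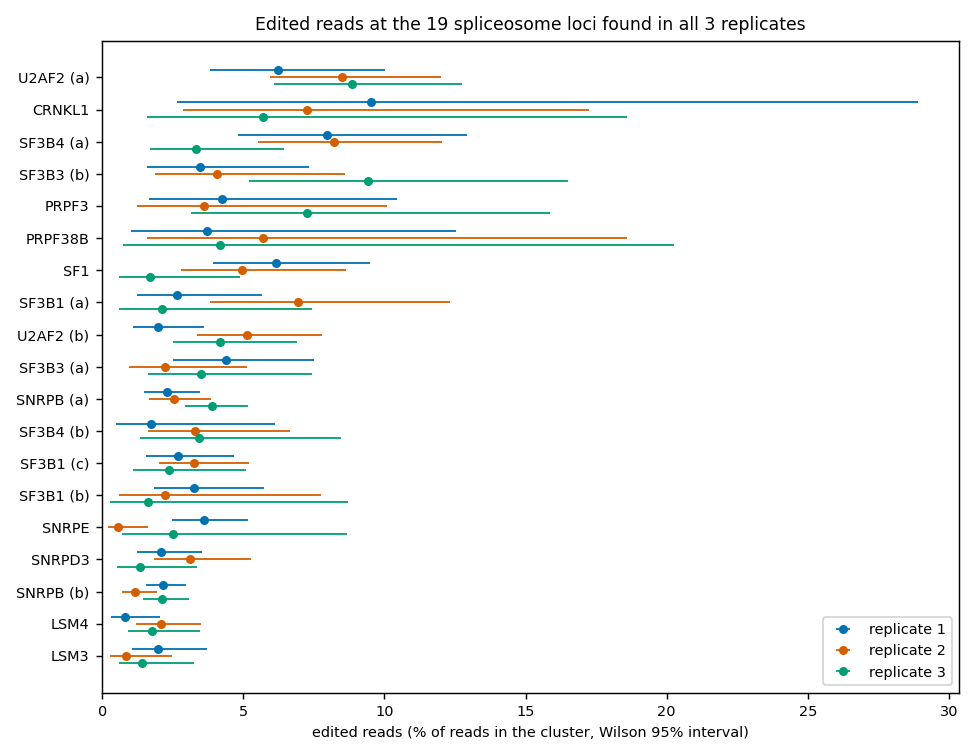
Share of reads that were edited (x axis, percent) at the 19 spliceosome loci found in all 3 replicates, 1 point per replicate with its Wilson 95% interval, ordered by mean share; letters order the loci of a gene by coordinate. U2AF2 (a) is at the top with 6.22%, 8.48% and 8.87%, and the intervals of the replicates overlap at every locus but SNRPE.

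Whether the share of edited reads differed between replicates by more than counting error was tested with an exact test of edited and unedited reads in the 3 replicates, adjusted with the Benjamini-Hochberg method over all loci. Of 174 loci of all genes with identical coordinates in all replicates, 4 differed (2.30%), and 0 of these 174 were spliceosome loci. With overlapping loci, 11 of 1586 differed (0.694%) and 0 of the 19 spliceosome loci did, while 3 of the 19 and 126 of the 1586 had an unadjusted p under 0.05. The 3 were SNRPE (exact p = 0.000583, adjusted p = 0.0578), the second U2AF2 locus (exact p = 0.0265, adjusted p = 0.5) and the first SF3B4 locus (exact p = 0.0401, adjusted p = 0.596). The replicates' clusters at these loci differ in length or are shifted against each other, so that the reads compared are not from identical bases.

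Position within the transcript could be read for the ends of genes. The files number exons by rising coordinate in 2049 of 2053 minus-strand and 2107 of 2110 plus-strand genes that could be checked, so exon 0 is, with those exceptions, the 3′ end of a minus-strand gene and the 5′ end of a plus-strand gene. In the 25 minus-strand spliceosome genes, 83 of 160 clusters lay in exon 0, or 63.3%, 45.0% and 49.0% by replicate, against 62.1%, 57.4% and 59.3% of the clusters of other minus-strand genes. The difference changed sign between replicates (exact sign-flip permutation p = 0.5). These 83 clusters held 509 of the 711 edited reads of the minus-strand spliceosome genes (71.6%), and 18 of the 83 were found in all replicates, against 7 of the 77 elsewhere. The like shares were not computed for other minus-strand genes, so they cannot be read as a trait of the spliceosome genes. In the 30 plus-strand genes, 7 of 197 clusters lay in exon 0 (3.77% ± 2.28, against 3.98% ± 0.244 of the clusters of other plus-strand genes, SD, n = 3), and 0 of these 7 were found in all replicates. Both SNRPB loci, the SF1 locus, the first SF3B4 locus and 2 of the 3 SF3B1 loci lay in exon 0, while the second SF3B4 locus lay in exon 6 and the SF3B1 locus chr2:198257757-198257936 in exon 2. SF3B1, SF3B4, SF1, PRPF8, SNRNP40, LSM4 and SNRPB are minus-strand genes, and U2AF2, SF3B3, SNRPE and SNRPD3 are plus-strand genes.

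Introns contributed 8 clusters: 3 in SNRPD3, 2 in SNRPB and 1 each in SF1, SNRPB2 and U2SURP. By replicate 3.15%, 2.33% and 0.99% of spliceosome clusters were intronic, against 2.16%, 2.33% and 1.70% of others. None of the 8 was found in all replicates, which was not compared with the intronic clusters of other genes. The SNRPD3 clusters are also annotated to GGT1 and the SNRPB ones to SNORD119 and ZNF343, and over the whole set 31 clusters carry a gene name besides that of the spliceosome gene.

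In 30 clusters of 15 genes the C bases were covered by far fewer reads than the mean depth states, at under 0.5 of it, where the median of all clusters was 0.995. The share of such clusters was 11%, 6.98% and 6.93% in spliceosome genes and 4.20%, 5.04% and 3.87% in others, higher in 3 of 3 replicates (exact sign-flip permutation p = 0.25). They included all 5 clusters of SNRNP70, all 4 in exon 0 of SNRPE, 5 of 6 in SRRM2 and both intronic clusters of SNRPB, which count 575 and 501 reads although each C base was covered 6.0 times. In the cluster with the highest edit fraction of the set, 16.7%, in SNRNP70 of replicate 2, 1 of 6 covered C bases was edited in a cluster of 173 reads mean depth (interval 3.01 to 56.4%). None of the 30 was found in all replicates, and none had more than 4 edited reads. For these clusters the share of edited reads is divided by reads that mostly did not cover the C bases, and it is not comparable with that of other clusters.

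Genes of the set with related names or shared complexes had these numbers of clusters. Of the U2AF heterodimer, U2AF2 had 6 clusters with 112 edited reads, and U2AF1, the small subunit that reads the 3′ splice site AG, had 3 with 12, in replicates 1 and 2. PRPF38B had 14 clusters with 21 edited reads and PRPF38A 9 with 13. PRPF4 had 11 with 31, and PRPF4B, a kinase, 6 with 10. LSM14A had 10 with 24 and LSM14B 2 with 5. SRRM2 had 6 with 12 and SRRM1 3 with 6. SNRPB had 8 with 167, while SNRPN, its close relative, had none. Reads of genes with similar sequence may have been assigned to either gene, which was not checked for SNRPB and SNRPN. A symbol that the annotation lacks would also show no cluster, and for U2AF1L5 this was not checked.

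The other genes of the pathway were counted in the same way. Of 88 further genes (other spliceosome proteins, the exon junction complex and snRNP assembly factors), 78 had a cluster and 48 of these (61.5%) had one in all 3 replicates, beside 63.6% of the spliceosome core. They held 462 clusters, 50 of them found in all replicates (10.8%, beside 14.0% of the core's 357), at a median depth of 37.3 ± 2.10 reads and a median edit fraction of 1.40% ± 0.0306 (SD, n = 3), beside 51.4 ± 4.23 reads and 1.23% ± 0.113 in the core. These differences were not tested. DNAJC8, a spliceosome-associated J-domain protein, had 297 edited reads in 16 clusters, more than any gene of the core, and 9 of the 16 were found in all replicates. PHF5A, which sits beside SF3B1 in the SF3b complex, had 15 clusters with 56 edited reads, 6 of them found in all. The 9 exon junction complex genes had 54 clusters, of which 0 were found in all replicates, and this was not tested at like depth.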

How the data were processed

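Edited positions were called by the authors with SAILOR, which removes common SNPs, and FLARE then took 30-base windows, applied a Poisson model truncated at zero, retained those with an adjusted p up to 0.1 and joined windows up to 15 bases apart, in each replicate separately. STAR and hg19 stand in the submitters' processing notes. The deposited counts per cluster (of reads, edited reads, covered C bases and edited bases) are not scaled. The deposited fractions are ratios of these counts, the deposited mean depth is an unscaled coverage signal, and the score the authors deposited is a negative binomial cumulative probability. Reads in clusters (1637592, 1731304 and 1104249) are not library depth. The few edited reads per cluster limit precision.

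All values came from statsmodels 0.14.6, SciPy 1.17.1, pandas 2.3.3 and NumPy 2.4.6 under Python 3.11.15, and the figures from matplotlib 3.10.9. A cluster counted if any annotated gene matched. Replicates, labelled as separate samples of 1 group, were compared by exact sign-flip tests of within-replicate differences. Loci were compared by Freeman-Halton exact tests (chi-square above 1000 edited reads). The locus test was tried on simulated data, and the sign-flip test only on 1 fixed set of values. The authors call the samples biological replicates, while the labels do not say that they were separate cultures. The sign-flip p-values rest on the within-replicate differences, whose spread may be technical, and the locus p-values on counting error alone. Genes named were the 20 with most edited reads, the 10 with most clusters, the 15 shared loci of highest edit fraction at a depth of at least 20, those with intronic clusters, pairs with related names and genes of each role. Values of 1 gene are not reported singly here and stand only in totals. The members and lists were chosen with earlier results of these data known. The share of clusters with GCATG was not computed because no genome of the build was used here.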

Additional observations from a re-analysis of the deposited data

How the results depend on the processing

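No paired analysis was possible because all samples form 1 group, so that replicate numbers pair no samples across groups. A minimum score of 0.95 gave spliceosome genes 0.848% of all clusters. A minimum of 0.99 gave 63.7 clusters per replicate, 0.774% of all clusters, 23 genes in all 3 replicates, 10.6% of clusters found in all, a median edit fraction of 1.47% and a difference in the share found of -0.0492 points. A minimum depth of 50 gave 60.7 clusters, 1.63%, 18 genes and 23.3% found. It also gave a median edit fraction of 0.829%, a difference from other genes of 0.0461 points and a median depth of 104 reads. The 25.3% found given earlier for clusters of at least 50 reads is another measure, since it counted partners of any depth. A minimum of 2 edited reads gave 0.961%, 17.2% found and a depth of 57.1. Dropping the SNRNP genes gave 0.799% of all clusters. An overlap of 50% gave 6.74% found. Means in place of medians gave an edit fraction of 1.84% and a depth of 93.2. Weighting to depth classes turned the differences in the share found to -2.62 points and in edit fraction to 0.0166 points. Leaving out each replicate in turn gave 23.8% to 27.0% found in both others, by construction higher, and a difference in the share found of 1.61 to 5.21 points. Settings added after seeing the data were 200 bases in place of an overlap (28.0% found, a difference in the share found of 0.847 points), weighting to classes of edited reads (a difference of 0.115 points) and clusters whose C bases were covered at 0.5 of the depth or more (0.840% of all clusters, depth 45.8). The cause was not tested, apart from what each setting does by construction. The other 62 values of these summary results kept their direction, with levels inside the spread between replicates and counts within 1.5 times. Some differences moved far: the share found to 0.0257 points at a depth of 50, and the edit fraction from -0.469 to -0.814 points at a score of 0.99 and -0.787 with means. At single loci, edited bases over covered C bases in place of the share of edited reads moved 13 values by more than that spread, and the other 47 values at single loci did not move so far. A cluster with 1 edited read rests on that read alone.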
